A study of Mus musculus and Homo sapiens with 9 samples.

Results

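The genes described here are 50 regulators of the cell division cycle. They are cyclins, cyclin-dependent kinases (CDKs), CDK inhibitors, the pocket proteins, the E2F transcription factors, and kinases and phosphatases that control CDK1 or mitosis. They were chosen by name, and all 50 were found by symbol in both annotations, where they stand among 21938 mouse and 20033 human protein-coding genes. A gene carried a promoter peak in a list when the midpoint of a peak lay within 1 kb of any of its annotated transcription start sites (TSSs), in GENCODE M21 on mm10 for mouse and GENCODE 44 on hg38 for human. Every peak whose midpoint fell inside a gene but over 1 kb from all of its TSSs was counted as a gene body peak. By role the genes comprise 4 cell cycle CDKs, 9 cell cycle cyclins, 10 CDKs and cyclins of transcription, 2 G-type cyclins, 7 CDK inhibitors, 3 pocket proteins, 8 E2F factors, 4 regulators of the CDK1 switch and 3 mitotic kinases.

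R-loops, in which an RNA strand pairs with DNA and leaves the other DNA strand single, were mapped by CUT&Tag, which uses an antibody to bring a transposase to its target so that nearby DNA is cut, tagged and sequenced. The series held 9 peak lists with 1 library each. In mouse embryonic fibroblasts (MEFs) the S9.6 antibody against RNA-DNA hybrids was used on Mcm8 WT cells, Mcm8 KO cells, cells with a control short hairpin RNA (shControl) and cells with a hairpin against Ddx5 (shDdx5), and 1 MEF library had no primary antibody. In HEK293 cells, a human embryonic kidney line, the libraries were mouse IgG, anti-FLAG in cells transfected with FLAG-MCM8, S9.6 alone, and S9.6 in cells transfected with an RNH1 plasmid. RNH1 is the study's name for RNase H1, which removes the RNA strand of a hybrid. The MEFs came from mid-gestation embryos of crosses between Mcm8 heterozygotes, and the hairpins were delivered by adenovirus. The labels do not tie a library to an embryo, and they give neither strain, sex nor time after treatment. The study immortalised its MEFs with SV40 large T antigen, and HEK293 cells carry adenovirus E1A. Both viral proteins are known to bind the pocket proteins RB1, RBL1 and RBL2, and their effect in these libraries was not measured. MCM8 is a helicase of homologous recombination and DDX5 an RNA helicase that can resolve hybrids. A peak list holds no expression values, so neither the cell type, the knockout nor the knockdown could be checked from it. With no replicates there is no test of any difference between conditions, and every interval given is a 95% interval that covers counting error alone.

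A cyclin binds a CDK and turns it on. D-type cyclins with CDK4 and CDK6, and E-type cyclins with CDK2, phosphorylate the pocket proteins, which then release E2F factors so that genes of DNA replication are transcribed. CDK inhibitors block these kinases, and later A- and B-type cyclins with CDK1 drive the cell through mitosis. R-loops form behind RNA polymerase and are well known at transcribed, G+C-rich promoters, the kind of promoter that many cell cycle genes have.

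The S9.6 lists held 6481 peaks in WT and 9605 in KO, and 12259 in shControl and 11768 in shDdx5 MEFs, and 15147 in HEK293 cells and 12497 with RNH1. The FLAG-MCM8 list held 13295 peaks, the IgG list 17178 and the no-antibody list 4314. Read totals were not used. A relative depth recovered from the peaks was 5.73 to 7.0 background fragments per kb in the 4 MEF S9.6 lists, 8.31 to 11.0 in the HEK293 lists, and 0.720 in the no-antibody list, in which a missing peak is therefore weak evidence. MEF peaks reached a p of 0.001 or lower and HEK293 peaks a p of 1e-05 or lower in the authors' peak calling, so counts in the mouse lists are never set against counts in the human lists. Each peak has a fold, which is the pileup (the number of fragments over its summit) relative to the local background. Where a gene had several promoter peaks in a list, the values given are those of the strongest unless stated.

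Promoter peaks of the cell cycle regulators were common in every S9.6 list. In MEFs, 15 of the 50 genes carried one in WT (30.0%, Wilson interval 19.1 to 43.8), where 11.3% of all protein-coding genes did. The KO list had 19 (38.0%, 25.9 to 51.8) beside 16.0% of all genes, the shControl list 18 (36.0%, 24.1 to 49.9) beside 14.7%, and the shDdx5 list 23 (46.0%, 33.0 to 59.6) beside 23.1%. In HEK293 cells, 30 genes carried an S9.6 promoter peak (60.0%, 46.2 to 72.4) beside 30.1% of all genes, and 23 did with RNH1 (46.0%, 33.0 to 59.6) beside 24.6%. In these 6 lists the interval of the regulators lay above the share of all genes. FLAG-MCM8 peaks stood at 10 of the 50 promoters (20.0%, 11.2 to 33.0) beside 12.0% of all genes, a difference of 7.99 percentage points whose interval, -0.761 to 21, included 0. The control lists gave 0 of 50 with no antibody (up to 7.13%) beside 1.24% of all genes, and 2 of 50 with IgG (4.0%, 1.10 to 13.5) beside 5.59%.

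**Figure D1:**
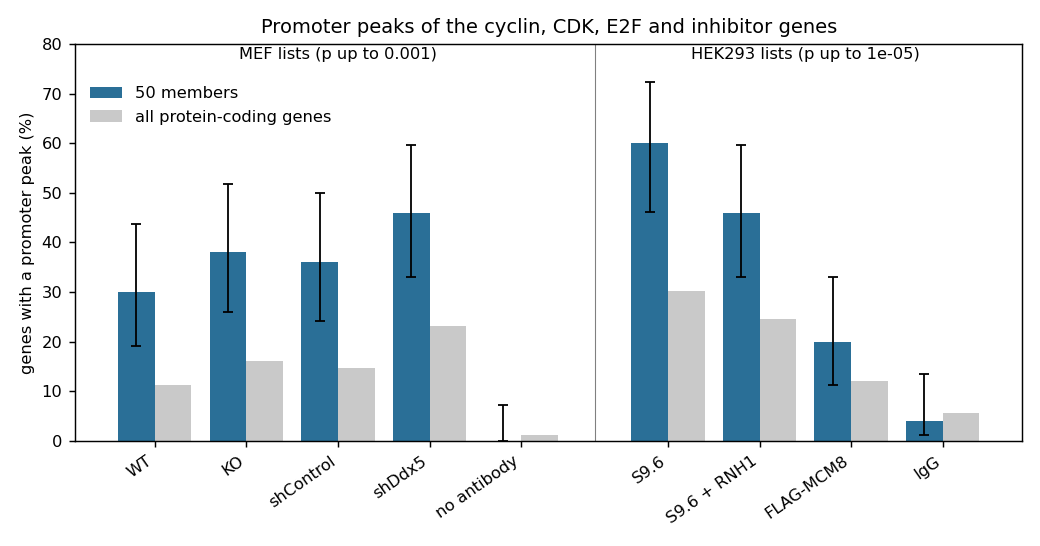
Percentage of genes with a promoter peak (vertical axis) in each of the 9 peak lists (horizontal axis), for the 50 cell cycle regulators, with 95% Wilson intervals as bars, and for all protein-coding genes. The regulators sit above all genes in the 6 S9.6 lists, from 30.0% against 11.3% in WT MEFs to 60.0% against 30.1% in HEK293 cells, and below them in both controls.

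The peaks themselves were of about the same fold as those of other genes, except in the HEK293 S9.6 list, where the regulators had the higher median. The median fold of promoter peaks was 3.92 for the regulators and 3.75 for all protein-coding genes in WT, 3.82 and 3.85 in KO, 3.92 and 3.68 in shControl, and 3.94 and 3.87 in shDdx5. The corresponding medians in HEK293 cells were 5.36 and 4.62 with S9.6, 4.30 and 4.33 with RNH1, and 5.04 and 4.92 with FLAG-MCM8. The regulators also had more annotated TSSs, a median of 5.0 against 3.0 in mouse and 8.0 against 5.0 in human, so each offered more windows in which a peak could fall. Their promoters were richer in G+C, with a median of 60.6% against 54.8% in mouse and 63.5% against 59.2% in human, and what part base composition has in the shares was not tested. The lists do not say which genes these cells transcribe, so the part of transcription in the shares was not tested either. With 1 TSS per gene, the regulators' interval still lay above all genes in all 6 lists.

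Across the 4 MEF S9.6 lists, 12 of the 50 promoters had no peak (24.0%, against 66.1% of all protein-coding genes), 19 had one in a single list (38.0% against 16.2%), 6 in 2 lists (12.0% against 8.48%), 8 in 3 lists (16.0% against 5.10%) and 5 in all 4 (10.0% against 4.19%). Those 5 were Ccna2, Ccnf, Ccnk, Cdkn2d and E2f8. In HEK293 cells, 16 promoters had no peak in the 3 antibody lists (32.0% against 59.4%), 11 had one in a single list (22.0% against 20.4%), 17 in 2 lists (34.0% against 14.5%) and 6 in all 3 (12.0% against 5.81%), namely CDK4, CCNT2, CDKN2C, E2F3, E2F8 and WEE1. E2F8, an E2F factor that represses its targets, had a promoter peak in each of these 7 lists. Its MEF peaks were weak, with a q in the authors' peak calling of 0.169 in WT, 0.253 in KO and 0.121 in shControl. Among the MEF lists, its q was below 0.05 in shDdx5 alone (0.0141). The genes for cyclin D1, RB1, E2F4, PLK1 and AURKB had none in any of the 9 lists.

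**Figure D2:**
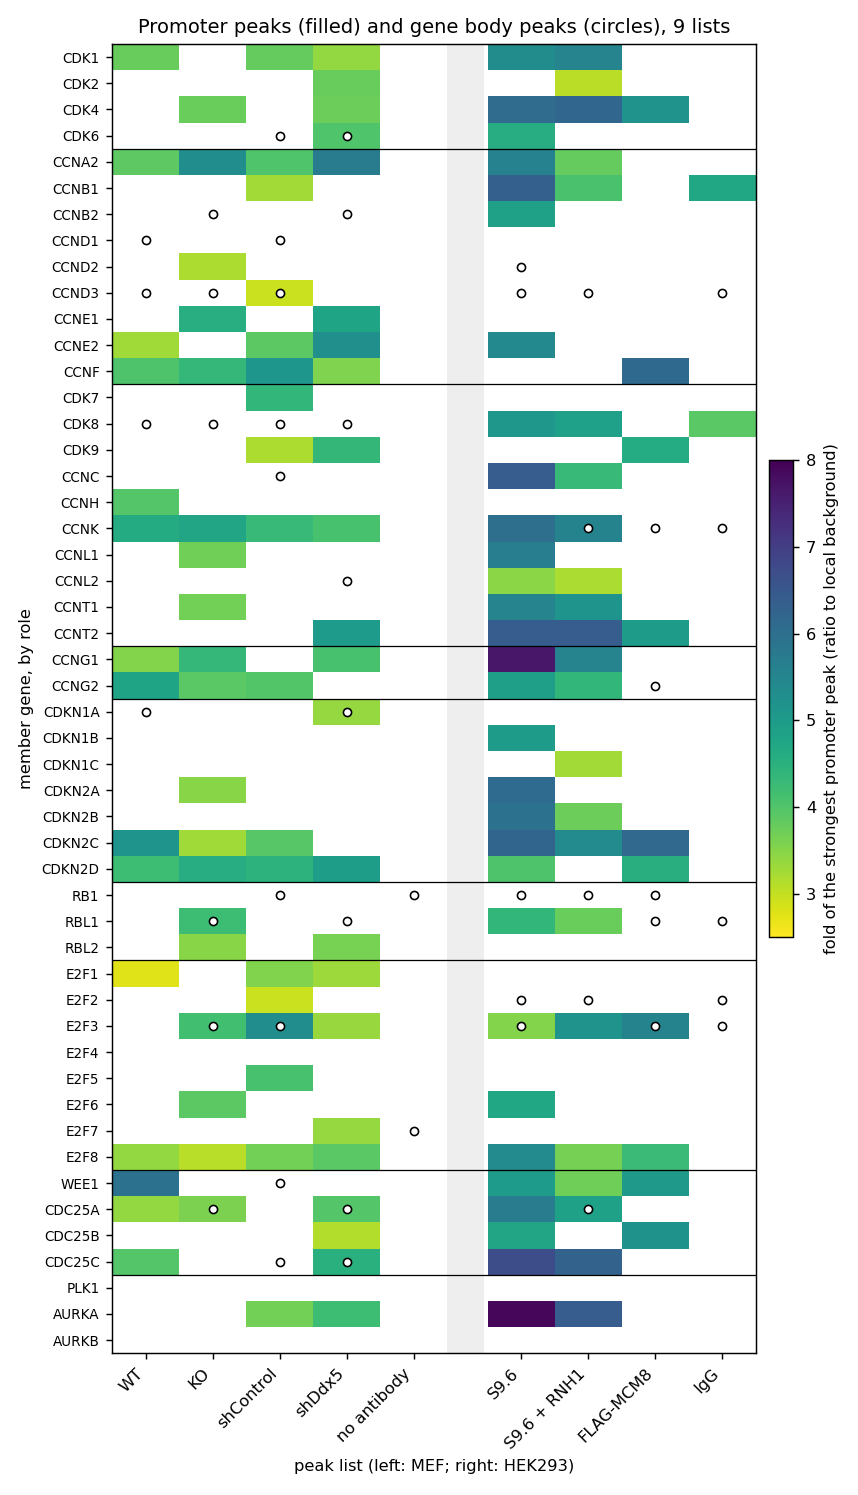
Promoter and gene body peaks of the 50 cell cycle regulators (vertical axis, ordered by role) in the 9 peak lists (horizontal axis). A filled cell is a promoter peak, coloured by the fold of its strongest peak over local background, and a circle marks a gene body peak, so that the 5 promoters with a peak in all 4 MEF S9.6 lists appear as unbroken runs.

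Among the cell cycle CDKs, all 4 carried a promoter peak in shDdx5 MEFs, and 1 of 4 did in each of the other MEF S9.6 lists. The share of all protein-coding genes was also highest in shDdx5, 23.1% beside 11.3% to 16.0% in the others. At Cdk2, Cdk4 and Cdk6, which had no promoter peak in shControl, the gap to that list was within counting error. CDK4 is a kinase of the D-type cyclins. The mouse gene lies at chr10:127063534-127067920 on the plus strand of mm10. It had a peak over its TSS in KO (chr10:127063311-127063609) with a fold of 3.75 and a pileup of 16 (Poisson interval 9.15 to 26.0), and in shDdx5 (chr10:127063258-127063812) with a fold of 3.73 and a pileup of 17 (9.90 to 27.2). No Cdk4 promoter peak was called in WT or shControl, nor without antibody. The gap is small in fragments. At the local background of the KO peak, scaled to the depth of WT, a pileup of 12 would have been called there, and the least ratio of KO to WT that this allows was 1.70 with an interval of 0.740 to 4.05. For shDdx5 against shControl the smallest callable pileup was 10 and the least ratio 1.63 (0.688 to 4.16). In both cases the peaks differ from a missing peak by no more than counting error.

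Human CDK4, at chr12:57747727-57756013 on the minus strand of hg38, had the promoter peak with the highest −log10 q of the 50 genes in both S9.6 lists, 33.7 with S9.6 alone and 40.0 with RNH1. The S9.6 peak (chr12:57752239-57752669) had a fold of 6.08 and a pileup of 81 (64.3 to 101), which ranked 137 of 15147 peaks by p. With RNH1 the peak (chr12:57752237-57752669) had a fold of 6.21 and a pileup of 94 (76.0 to 115), rank 75 of 12497. Relative to background depth, the RNH1 pileup was 1.07 times that with S9.6 alone (0.784 to 1.45), so no reduction was detectable at CDK4. FLAG-MCM8 gave a peak of fold 5.18 and pileup 27 (17.8 to 39.3) across chr12:57752326-57753102, rank 725 of 13295. IgG gave none. The 3 antibody peaks shared the same start of transcription, 1 of 14 annotated for CDK4, and the FLAG-MCM8 and S9.6 peaks had 344 bp in common with summits 153 bp apart.

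The DNA under these peaks is shown because CDK4 had a peak at this promoter in both species. Both sequences read 5′ to 3′ along the coding strand, upstream of an annotated start and free of exons, and capitals mark the letters CACGTG, an E-box to which MYC and related factors bind. The mouse sequence covers the last 150 bases before the 5′ end of Cdk4 (chr10:127063384-127063533), all inside the KO and shDdx5 peaks. The human sequence is the 222 bases outside exons that the FLAG-MCM8 and S9.6 peaks share (chr12:57752448-57752669).
mouse Cdk4: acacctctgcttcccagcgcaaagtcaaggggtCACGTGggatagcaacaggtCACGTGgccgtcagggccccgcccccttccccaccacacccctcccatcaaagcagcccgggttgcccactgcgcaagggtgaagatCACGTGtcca
human CDK4: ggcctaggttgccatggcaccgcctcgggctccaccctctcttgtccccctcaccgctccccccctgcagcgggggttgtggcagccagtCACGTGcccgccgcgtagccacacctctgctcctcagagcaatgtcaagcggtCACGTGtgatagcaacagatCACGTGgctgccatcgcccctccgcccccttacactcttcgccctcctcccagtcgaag
Each holds CACGTG 3 times, and the 2 nearest copies are equally spaced in both. In the window from 250 bases before to 50 bases after each gene's 5′ end, read on both strands, CACGTG occurred in 9 of the 50 mouse genes (18.0%) beside 7.75% of all protein-coding genes, and in 8 human genes (16.0%) beside 8.36%. The 5′ end of human CDK4 is another start, at chr12:57756013, so the human copies shown lie outside the window of this search. This search was added after the sequences had been seen.

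In the lists where CDK4 had a promoter peak, any peaks of the other 3 kinases had lower pileups, though in MEFs not always lower folds. In WT and shControl, Cdk1 had a peak and Cdk4 had none. CDK1, which drives mitosis, had a promoter peak of fold 3.77 in WT, 3.79 in shControl and 3.40 in shDdx5, with pileups of 10 to 12, and in HEK293 cells of fold 5.35 with S9.6 and 5.51 with RNH1. CDK2, the partner of cyclins E and A, had one in shDdx5 (fold 3.77, at a TSS shared with the neighbouring gene Pmel) and with RNH1 (fold 3.06). CDK6, a second kinase of the D-type cyclins, had one in shDdx5 (fold 4.02) and in HEK293 S9.6 (fold 4.58).

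Of the 9 cell cycle cyclins, 3 had a promoter peak in WT and 4 in KO, and 5 in shControl and 4 in shDdx5. Cyclins A2 and F were present throughout. Ccna2 encodes the cyclin of S phase and G2, and its peak had a fold of 3.87 and a pileup of 10 in WT, 5.30 and 16 in KO, 4.02 and 11 in shControl, and 5.72 and 18 in shDdx5. Ccnf encodes an F-box protein that marks other proteins for destruction in G2, and its peak had a fold of 4.03 in WT and 4.34 in KO, and 5.12 in shControl and 3.56 in shDdx5, with pileups of 10 to 13. The pileups of each gene overlapped in all 4 lists within their Poisson intervals. Cyclin E1, which starts S phase with CDK2, had a peak in KO (fold 4.55, pileup 11) and shDdx5 (fold 4.78, pileup 13) alone, whereas its relative Ccne2 had one in WT, shControl and shDdx5, the last with a fold of 5.27 and a pileup of 20. The D-type cyclins, which respond to growth factors, carried few: Ccnd2 had one in KO (fold 3.17), Ccnd3 one in shControl (fold 2.93), and Ccnd1 none. Their q was 0.222 at Ccnd2 and 0.296 at Ccnd3. Ccnb1, a mitotic cyclin, had one in shControl (fold 3.27, pileup 7), and Ccnb2 none in MEFs.

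In HEK293 cells, 4 of the 9 cyclins had an S9.6 promoter peak, at CCNA2 (fold 5.58), CCNB1 (6.33), CCNB2 (4.88) and CCNE2 (5.42), and with RNH1 the peaks at CCNA2 (3.81) and CCNB1 (4.07) were still called. CCNB1 also had the strongest IgG peak of the set at chr5:69166907-69167445, with a fold of 4.73 and a pileup of 23 (14.6 to 34.5), beside a pileup of 24 in its S9.6 peak. CCNF had no S9.6 peak in HEK293 cells but had the FLAG-MCM8 promoter peak with the highest −log10 q and pileup of the 50 genes, with a fold of 6.14, a pileup of 28 and a −log10 q of 11.8.

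The DNA before 4 of the mouse starts is shown to compare 3 of the 5 promoters that had a peak in all 4 S9.6 lists (Ccnf, Ccnk and Cdkn2d) with that of E2f3, which had a peak in 3. Each line is the 150 bases before the 5′ end of the gene in mm10, free of exons, along the coding strand. Capitals mark 2 sequence classes known from cell cycle promoters: TTTGAA, the cell cycle genes homology region (CHR), and the E2F-like letters TTTCCCGC or TTTGGCGC, each on either strand. They come from chr17:24251485-24251634 (minus strand) for Ccnf, chr12:108179429-108179578 (plus) for Ccnk, chr9:21291408-21291557 (minus) for Cdkn2d and chr13:29986064-29986213 (minus) for E2f3.
mouse Ccnf: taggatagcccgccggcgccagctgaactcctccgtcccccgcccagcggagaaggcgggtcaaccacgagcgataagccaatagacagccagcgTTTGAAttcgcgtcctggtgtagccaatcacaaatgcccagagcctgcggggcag
mouse Ccnk: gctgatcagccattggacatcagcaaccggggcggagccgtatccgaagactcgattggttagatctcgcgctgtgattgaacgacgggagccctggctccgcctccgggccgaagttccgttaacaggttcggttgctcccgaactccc
mouse Cdkn2d: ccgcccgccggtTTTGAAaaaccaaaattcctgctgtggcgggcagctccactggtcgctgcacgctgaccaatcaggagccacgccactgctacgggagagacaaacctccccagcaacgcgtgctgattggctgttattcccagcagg
mouse E2f3: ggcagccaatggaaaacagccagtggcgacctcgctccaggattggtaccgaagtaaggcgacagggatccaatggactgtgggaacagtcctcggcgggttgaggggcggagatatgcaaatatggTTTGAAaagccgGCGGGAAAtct
All 150 bases of Ccnf and of Ccnk lay inside the peak of each of the 4 lists, as did 83 bases of Cdkn2d. Ccnf and Cdkn2d hold a CHR, E2f3 holds a CHR and an E2F-like site a few bases apart, and Ccnk holds neither. Of the promoters in all 4 lists that are not shown, Ccna2 holds neither in its 150 bases and E2f8 holds a CHR. Over all 50 genes and the 300-base window given above, E2F-like letters occurred in 9 mouse genes (18.0%) beside 2.0% of all genes, and in 8 human genes (16.0%) beside 2.76%. TTTGAA occurred in 14 mouse genes (28.0%) beside 16.4% and in 13 human genes (26.0%) beside 13.3%. Among the regulators, neither went 1 way with S9.6 promoter peaks. TTTGAA was in 26.3% of mouse genes with a peak and 33.3% without, and in 28.1% and 22.2% of human genes. E2F-like letters were in 21.1% and 8.33% of mouse genes, and in 12.5% and 22.2% of human genes. A match of letters is a description and does not show that a factor binds.

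The CDKs and cyclins that act in transcription include CDK7 with cyclin H, CDK8 with cyclin C in the Mediator complex, and CDK9 with cyclins T1 and T2, which release paused RNA polymerase II. In MEFs 2 of these 10 genes had a promoter peak in WT and 3 in each of the other S9.6 lists. Ccnk, whose product pairs with CDK12 and CDK13, was in all 4, with a fold of 4.64 in WT and 4.76 in KO, and 4.29 in shControl and 4.09 in shDdx5 and pileups of 14, 17, 12 and 15, at a promoter shared with Setd3. Ccnh had a peak in WT (fold 3.98), Ccnl1 (3.70) and Ccnt1 (3.68) in KO, Cdk7 in shControl (4.37), Ccnt2 in shDdx5 (5.01), and Cdk9 in shControl (3.17) and shDdx5 (4.35). In HEK293 cells 7 of the 10 had an S9.6 promoter peak, of fold 6.40 at CCNC, 6.40 at CCNT2, 6.02 at CCNK, 5.68 at the splicing-linked CCNL1, 5.52 at CCNT1, 5.08 at CDK8 and 3.46 at CCNL2. Of these 7, CCNL1 alone had none with RNH1. FLAG-MCM8 peaks lay at CCNT2 (fold 4.98) and CDK9 (fold 4.62), and CDK8 had an IgG peak (fold 3.91, pileup 16) at another of its 10 TSSs.

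Mouse Cdk8 had no promoter peak but held the tallest peak of any of the 50 genes in MEFs, inside its body. It began at chr5:146260993 in all 4 S9.6 lists, lay in a stretch with 0 annotated exons, and had a fold of 14.6 in WT and 15.4 in KO, and 10.3 in shControl and 13.3 in shDdx5. The pileups were 72 (56.3 to 90.7), 77 (60.8 to 96.2), 37 (26.1 to 51.0) and 51 (38.0 to 67.1), and the peak ranked 15, 13, 19 and 16 by p in its lists. The no-antibody list held no peak here. The first 300 of the 334 bp common to the 4 peaks (chr5:146260993-146261292, plus strand) are shown because the 4 peaks start at the same base. Capitals mark stretches of 31 bases that occur elsewhere in the reference.
mouse Cdk8 intron: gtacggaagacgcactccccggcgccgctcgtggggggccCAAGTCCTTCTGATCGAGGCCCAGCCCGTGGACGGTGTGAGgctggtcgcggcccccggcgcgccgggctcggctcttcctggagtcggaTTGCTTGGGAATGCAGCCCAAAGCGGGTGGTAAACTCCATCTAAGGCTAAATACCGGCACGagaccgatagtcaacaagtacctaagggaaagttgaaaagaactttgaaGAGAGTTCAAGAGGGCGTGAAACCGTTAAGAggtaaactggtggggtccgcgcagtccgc
Of 31 such stretches tested along the peak, 7 (22.6%) were found elsewhere in the reference, and a run of 15 A begins at chr5:146261366, past the shared end. The letters resemble those of the large ribosomal RNA, which no file used here holds to match against. Whether reads from ribosomal DNA or from other copies entered the peak was not tested, so its fold cannot be read as that of an R-loop of Cdk8.

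The G-type cyclins, which are tied to the DNA damage response and to cell cycle exit, had peaks in most lists. CCNG1, a p53 target, had a promoter peak of fold 3.53 in WT, 4.34 in KO and 4.11 in shDdx5 MEFs, and of 7.67 with S9.6 and 5.51 with RNH1 in HEK293 cells. CCNG2 had one of fold 4.79 in WT, 3.90 in KO and 3.99 in shControl, and of 4.92 and 4.39 in the human S9.6 and RNH1 lists.

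Of the 7 CDK inhibitors, 2 had a promoter peak in WT and 3 in KO, and 2 in shControl and 2 in shDdx5. Cdkn2d, which encodes the CDK4 and CDK6 inhibitor p19-INK4D, was among the 3 strongest of the 50 genes by q in all 4 MEF S9.6 lists. Its fold was 4.22 in WT and 4.57 in KO, and 4.47 in shControl and 4.96 in shDdx5, and its pileup 21 (13.0 to 32.1), 25 (16.2 to 36.9), 18 (10.7 to 28.4) and 27 (17.8 to 39.3). The 4 intervals overlap. Cdkn2c, which encodes the related p18-INK4C, had a peak in WT (fold 5.15, pileup 13), KO (3.28, 7) and shControl (3.95, 10). Cdkn2a, the Ink4a and Arf gene, had one in KO (fold 3.47), and Cdkn1a, which encodes p21, one in shDdx5 (fold 3.37). Cdkn1b, Cdkn1c and Cdkn2b had none in MEFs.

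In HEK293 cells, 5 of the 7 inhibitors had an S9.6 promoter peak and 3 did with RNH1. CDKN2C was in all 3 antibody lists, with folds of 6.23 with S9.6, 5.38 with RNH1 and 6.16 with FLAG-MCM8 at one of its TSSs. At another of its TSSs, shared with FAF1, the fold was 4.1 with S9.6 and 4.40 with RNH1. CDKN2D had an S9.6 peak (fold 4.03) and a FLAG-MCM8 peak (fold 4.52) with 109 bp in common. CDKN1B (p27, fold 4.98) and CDKN2A (6.10) had S9.6 peaks alone, CDKN2B had both S9.6 (5.94) and RNH1 (3.73) peaks, CDKN1C (p57, 3.27) had one with RNH1 alone, and CDKN1A had none.

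The pocket proteins restrain E2F factors in G1 and G0. Rbl1, which encodes p107, had a promoter peak in KO MEFs (fold 4.23). Rbl2, which encodes p130, had 2 in KO (folds of 2.98 and 3.47, at different TSSs) and 1 in shDdx5 (fold 3.62). The q of the 2 Rbl2 peaks in KO was 0.339 and 0.191. RB1 had no promoter peak anywhere. In HEK293 cells RBL1 had one with S9.6 (fold 4.39) and with RNH1 (3.76).

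The E2F factors divide into activators (E2F1 to E2F3) and repressors (E2F4 to E2F8). In MEFs 2 of 8 had a promoter peak in WT and 3 in KO, and 5 in shControl and 4 in shDdx5. E2f8 had a fold of 3.39 in WT and 3.10 in KO, and 3.68 in shControl and 3.90 in shDdx5, with pileups of 8 to 10, in each list the lowest of the 5 promoters found in all 4. E2f3 had a fold of 4.17 in KO, 5.31 in shControl and 3.35 in shDdx5, with pileups of 16, 16 and 12, and its shControl peak had the highest −log10 q of the 50 genes in that list, 4.62. E2f1 had peaks of fold 2.77 in WT, 3.54 in shControl and 3.31 in shDdx5, with a q of 0.389, 0.0439 and 0.0180. E2f2 (2.94) and E2f5 (4.09) had one in shControl, E2f6 (3.89) in KO and E2f7 (3.37) in shDdx5. In HEK293 cells E2F3 had overlapping peaks of fold 3.53 with S9.6, 4.21 with RNH1 and 5.54 with FLAG-MCM8, and a stronger RNH1 peak of fold 5.18 farther downstream. E2F8 had a fold of 5.38 with S9.6, 3.65 with RNH1 and 4.27 with FLAG-MCM8. E2F6 had one with S9.6 (fold 4.72), and the other 5 had none.

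Entry into mitosis is set by WEE1, which inhibits CDK1 by phosphorylation, and by the CDC25 phosphatases, which reverse it. Of these 4 genes, 3 had a promoter peak in WT and 1 in KO, and 0 in shControl and 3 in shDdx5. Of the 50 genes, Wee1 had the promoter peak with the highest −log10 q in WT, at chr7:110121647-110122012, with a fold of 5.92, a pileup of 24 (15.4 to 35.7) and a −log10 q of 8.58. It had no promoter peak in the other 3 lists. Cdc25a had peaks of fold 3.39 in WT, 3.58 in KO and 3.98 in shDdx5, and Cdc25b had one in shDdx5 (3.14) at a promoter shared with Spef1. In HEK293 cells all 4 had an S9.6 promoter peak, of fold 5.01 at WEE1, 5.71 at CDC25A, 4.76 at CDC25B and 6.72 at CDC25C. With RNH1 the fold was 3.71 at WEE1, 4.88 at CDC25A and 6.26 at CDC25C. FLAG-MCM8 gave a peak of fold 5.04 at WEE1 and of 5.19 at CDC25B. Of the mitotic kinases, AURKA alone had promoter peaks, in shControl (fold 3.68), shDdx5 (4.22), HEK293 S9.6 (7.90, the highest fold of any of the 50 promoters there) and RNH1 (6.40), at a promoter shared with CSTF1.

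The first comparison asked how promoter R-loops differ when Mcm8 is lost. Between WT and KO MEFs, 9 of the 50 promoters had a peak in both lists (18.0%, against 6.66% of all protein-coding genes), 6 in WT alone (12.0% against 4.66%), 10 in KO alone (20.0% against 9.38%) and 25 in neither. The 10 found in KO were those of Cdk4, Ccnd2, Ccne1, Ccnl1, Ccnt1, Cdkn2a, Rbl1, Rbl2, E2f3 and E2f6, and the 6 found in WT those of Cdk1, Ccne2, Ccnh, E2f1, Wee1 and Cdc25c. Among all genes, too, more promoters were found in KO alone than in WT alone. The KO list is longer, and with the 6481 strongest peaks of each list, 7 promoters were found in KO alone and 8 in WT alone, which turns the order. With peaks of q 0.05 or lower, 6 were found in KO alone and 5 in WT alone. The control lists WT and shControl differed from each other to a similar extent. A peak stood in both at 10 promoters (20.0% against 5.88% of all genes). It was in WT alone at 5 (10.0% against 5.44%), Wee1 among them, and in shControl alone at 8 (16.0% against 8.87%).

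A promoter without a peak may still hold fragments below the call limit, so each pileup was set against the largest one that could have gone uncalled in the other list. Of the 10 promoters found in KO alone, 0 exceeded this limit by more than counting error. Of the 6 found in WT alone, 1 did. At Wee1, where the smallest callable pileup in KO was 9, the depth-scaled WT pileup was at least 2.57 times an uncalled one (1.12 to 6.62). Promoters entered this comparison because they were called in 1 list of the pair, and the strongest peak was used. The intervals are not adjusted for that choice or for the number of promoters compared, so the value at Wee1 does not establish a difference. Where both lists had a peak, the depth-scaled KO to WT ratio had a median of 1.06 (range 0.629 to 1.87, 2 of 9 below 1), beside 1.17 over the 1460 protein-coding genes with both, of which 23.4% were below 1. At 3 of the 9, Ccng1, Cdkn2c and Cdc25a, the strongest peaks of the lists do not overlap, so their ratios, which include the lowest, compare different sites.

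The second comparison asked the same of Ddx5. Between shControl and shDdx5 MEFs, 11 promoters had a peak in both lists (22.0%, against 9.77% of all genes), 7 in shControl alone (14.0% against 4.97%), 12 in shDdx5 alone (24.0% against 13.3%) and 20 in neither. The 12 were those of Cdk2, Cdk4, Cdk6, Ccne1, Ccnt2, Ccng1, Cdkn1a, Rbl2, E2f7, Cdc25a, Cdc25b and Cdc25c. The 7 in shControl alone were those of Ccnb1, Ccnd3, Cdk7, Ccng2, Cdkn2c, E2f2 and E2f5. The shDdx5 list had more of its peaks at q 0.05 or lower, 60.5% against 28.1% in shControl. At that limit 13 promoters were found in shDdx5 alone and 4 in shControl alone, and with the 6481 strongest peaks 10 and 4. None of the 12 or of the 7 exceeded the call limit of the other list by more than counting error (0 of 12 and 0 of 7). Where both had a peak, the ratio of shDdx5 to shControl had a median of 1.08 (0.648 to 1.57, 3 of 11 below 1), beside 1.18 over 2144 genes with 28.5% below 1.

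The pairs are separate libraries with no control in common. Cdk4, Ccne1 and Rbl2 were found in KO but not WT and in shDdx5 but not shControl (3 of 50, 6.0%, beside 2.95% of all genes). Ccne1 had a least ratio of 2.14 for KO over WT (0.726 to 7.05) and 1.87 for shDdx5 over shControl (0.664 to 6.01), and Rbl2 had 1.33 (0.423 to 4.32) and 1.36 (0.481 to 4.13). Each of these intervals includes 1, as do those of Cdk4 given above, so no shared change of the 3 genes is read from them. No promoter was lost in both contrasts (0 of 50, beside 0.365% of all genes).

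**Figure D3:**
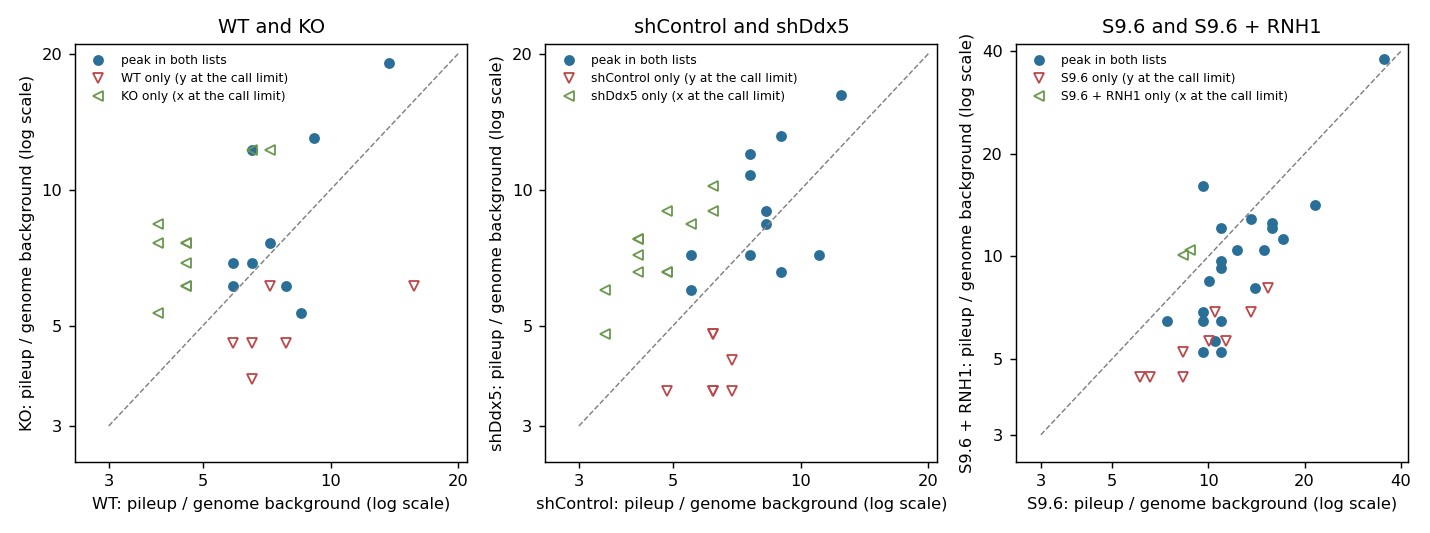
Pileup at the strongest promoter peak divided by the genome background of its list, on log axes, for each regulator with a promoter peak in at least 1 list of a pair (KO against WT, shDdx5 against shControl, RNH1 against S9.6 in HEK293 cells). A promoter with no peak in a list is drawn at the limit of calling, and the points with a peak in both lists of the third panel lie mostly below the line of equality (18 of 21).

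The third comparison asked how far RNase H1 lowers the S9.6 signal, which is a check of its specificity for hybrids. In HEK293 cells, 21 of the 50 promoters had a peak both with S9.6 and with RNH1 (42.0%, against 17.5% of all genes), 9 with S9.6 alone (18.0% against 12.6%), 2 with RNH1 alone (4.0% against 7.18%) and 18 with neither. The 9 were those of CDK6, CCNB2, CCNE2, CCNL1, CDKN1B, CDKN2A, CDKN2D, E2F6 and CDC25B, and the 2 those of CDK2 and CDKN1C. At 3 of the 9 the S9.6 pileup exceeded the RNH1 call limit by more than counting error: CCNE2 (at least 1.98 times, 1.06 to 3.82), CCNL1 (2.02, 1.02 to 4.18) and CDC25B (1.90, 1.07 to 3.48). As in the MEF pairs, these intervals are not adjusted for the choice of promoters by their call or for the number compared. These bounds assume that every peak past the call limit is in the list, but the HEK293 lists had been filtered after calling, so a missing peak can also be one that was removed. At the 21 promoters with both, the depth-scaled RNH1 to S9.6 ratio had a median of 0.766 (0.478 to 1.67) and was below 1 at 18, beside a median of 0.920 and 65.0% below 1 over 3496 protein-coding genes. Of these, 1 gene lay beyond counting error on its own, CDKN2B, with a ratio of 0.478 (0.225 to 0.971). The ends of the range, 0.478 at CDKN2B and 1.67 at E2F3, compare strongest peaks that do not overlap. Of the 30 promoters with an S9.6 peak, 70.0% (52.1 to 83.3) had one with RNH1, beside 58.1% of 6022 genes.

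The fourth comparison asked where MCM8 lies relative to R-loops. FLAG-MCM8 and S9.6 both had a peak at 8 of the 50 promoters (16.0%, against 7.39% of all genes), those of CDK4, CCNT2, CDKN2C, CDKN2D, E2F3, E2F8, WEE1 and CDC25B, and FLAG-MCM8 alone at CCNF and CDK9. S9.6 promoter peaks were themselves more frequent at the regulators. Of the 30 promoters with an S9.6 peak, 26.7% (14.2 to 44.4) had one with FLAG-MCM8, close to the 24.6% of 6022 genes. Of the 11 FLAG-MCM8 promoter peaks, 8 shared at least 1 bp with an S9.6 peak (72.7%, 43.4 to 90.3), beside 41.4% of 2205 FLAG-MCM8 promoter peaks of all genes. None of the 11 overlapped an IgG peak, and 0 of these 10 genes had an IgG promoter peak (0 to 27.8%), beside 10.4% of all genes with a FLAG-MCM8 promoter peak. At the 8 shared peaks the summits lay 22 bp apart at CDKN2C, 36 bp at WEE1, 70 bp at E2F8 and 599 bp at CCNT2, and 113 to 157 bp apart at the other 4.

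The bases that FLAG-MCM8 and S9.6 peaks share outside exons are shown for 3 more promoters, to set beside that of CDK4. All are from hg38 and read along the coding strand, from chr6:20401509-20401762 (plus) for E2F3, chr20:3796014-3796285 (plus) for CDC25B and chr19:10569117-10569225 (minus) for CDKN2D. Capitals would mark the letters searched above, and none of these stretches holds any.
human E2F3: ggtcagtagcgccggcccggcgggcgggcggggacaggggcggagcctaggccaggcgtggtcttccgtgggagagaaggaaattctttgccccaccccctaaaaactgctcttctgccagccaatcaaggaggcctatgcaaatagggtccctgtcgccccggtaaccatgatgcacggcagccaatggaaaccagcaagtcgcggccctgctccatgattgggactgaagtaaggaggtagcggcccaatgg
human CDC25B: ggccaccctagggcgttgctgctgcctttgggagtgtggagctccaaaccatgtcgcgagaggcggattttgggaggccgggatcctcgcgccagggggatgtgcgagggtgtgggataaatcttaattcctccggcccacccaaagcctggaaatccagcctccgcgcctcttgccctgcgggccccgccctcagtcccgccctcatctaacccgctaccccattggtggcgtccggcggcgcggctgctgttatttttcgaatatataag
human CDKN2D: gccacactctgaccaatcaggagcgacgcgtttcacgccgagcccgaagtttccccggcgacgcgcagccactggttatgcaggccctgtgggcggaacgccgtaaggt
They end 117 bases before the nearest TSS at E2F3, 6 at CDC25B and 58 at CDKN2D. Their G+C content is 62.2%, 62.5% and 65.1%, and that of the CDK4 stretch 66.2%.

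Within promoters the S9.6 summits of the regulators lay close to the TSS. The median position was 29.5 bp downstream in WT and 19.5 bp upstream in KO (-19.5), and 2.0 bp downstream in shControl and 0 bp in shDdx5, and the medians of all protein-coding genes were -34.0, -35.0, -25.0 and -19.0 bp. In HEK293 cells the medians were -20.0 bp with S9.6 and -90.0 bp with RNH1, beside -27.0 and -26.0 bp. FLAG-MCM8 summits lay farther upstream, at a median of -178 bp, with 2 of 11 downstream of the TSS (18.2%), beside -13.0 bp and 46.8% for all genes.

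**Figure D4:**
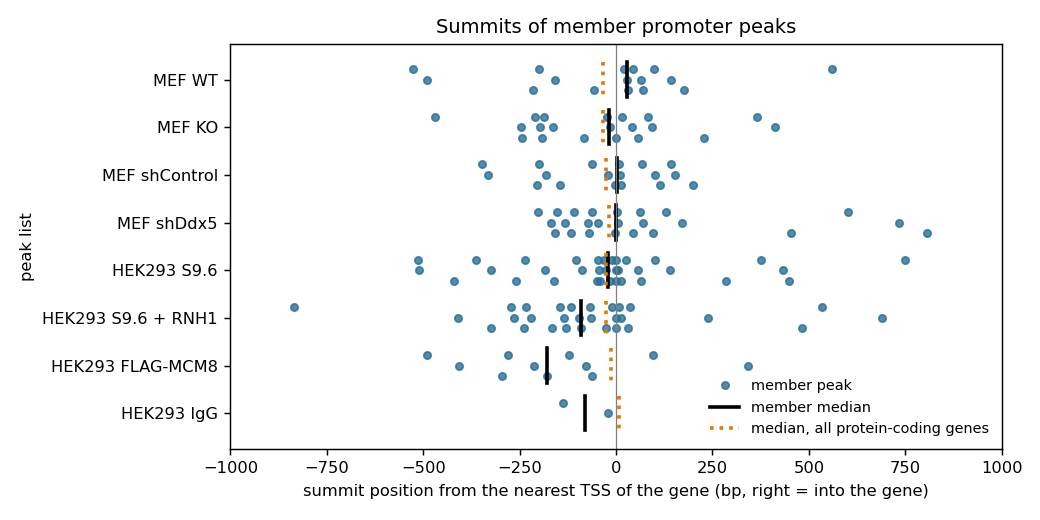
Distance of each promoter peak summit from the nearest TSS in bp, with positive values downstream (horizontal axis), for the 50 regulators in each peak list (vertical axis). Points are peaks and bars their medians, which lie from -178 bp in FLAG-MCM8 to 29.5 bp in WT MEFs.

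Inside gene bodies the shares of the regulators lay near those of all genes in MEFs. They were lower in HEK293 cells, but their interval excluded the share of all genes with IgG alone. The regulators had shorter gene bodies, with a median of 11248 bp against 13998 in mouse and 17639 against 22310 in human. At least 1 body peak lay in 4 of the 50 genes in WT (8.0%, beside 8.77% of all genes), 6 in KO (12.0% beside 12.1%), 9 in shControl (18.0% beside 15.5%), 8 in shDdx5 (16.0% beside 13.0%) and 2 with no antibody (4.0% beside 6.62%). Each HEK293 list had 5 such genes (10.0%, 4.35 to 21.4), beside 19.4% with S9.6, 16.6% with RNH1, 18.3% with FLAG-MCM8 and 22.1% with IgG. Per 100 kb of gene body, the regulators had 0.342 peaks in WT and 0.513 in KO, and 1.11 in shControl and 0.684 in shDdx5, beside 0.254, 0.382, 0.513 and 0.410 in all genes. Only the shControl interval, 0.592 to 1.90, lay above all genes, and 4 of its 13 peaks were in Cdk8 and 2 in Cdk6. With the same number of strongest peaks in each MEF list, the shControl density was 0.257 (0.0529 to 0.750), and at q 0.05 or lower it was 0.171. The counts in the 4 MEF S9.6 lists include the Cdk8 peak shown above, 1 in each. In HEK293 cells the densities were 0.250 with S9.6, 0.350 with RNH1, 0.350 with FLAG-MCM8 and 0.501 with IgG, beside 0.458, 0.380, 0.444 and 0.596.

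The genes with most body peaks were Cdk8 in shControl (4), Cdk6 in shControl (2), CCND3 and CCNK with RNH1 (2 each), CCNG2 with FLAG-MCM8 (3) and E2F3 with IgG (3). RB1 had 1 body peak in each of the 3 HEK293 antibody lists, at chr13:48532704-48533073 with S9.6 (fold 8.85, pileup 28), and this lies within 1 kb of a TSS of the neighbouring gene RCBTB2, so it cannot be assigned to RB1. With no antibody, Rb1 held 2 body peaks and E2f7 held 1, with pileups of 3 and 4 fragments. With IgG, RBL1 and E2F2 and CCND3 held 2 each and CCNK 1.

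**Figure D5:**
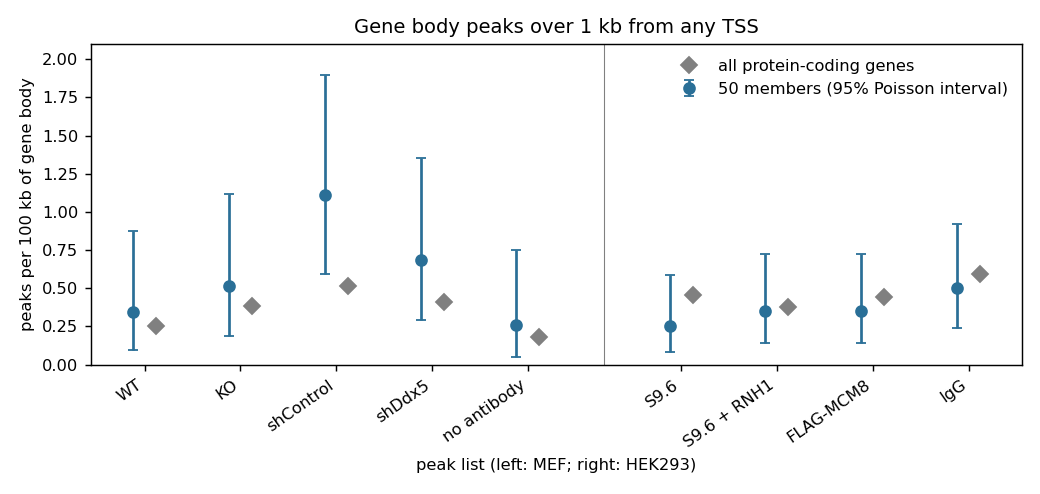
Gene body peaks per 100 kb (vertical axis), over 1 kb from any TSS, in each peak list (horizontal axis) for the 50 regulators, with 95% Poisson intervals as bars, and for all protein-coding genes. The intervals include the value of all genes in every list except shControl, where 1.11 stands beside 0.513 but is 0.257 with the same number of strongest peaks in each MEF list.

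Other genes of the same pathway were counted in the same way. They were 67 further cyclins, CDKs, partners of the pocket proteins, ubiquitin ligase subunits and checkpoint genes, of which 66 were found in mouse. A promoter peak was at 17 of them in WT (25.8%, beside 11.3% of all protein-coding genes) and 29 in KO (43.9% beside 16.0%). There were 22 in shControl (33.3% beside 14.7%), 34 in shDdx5 (51.5% beside 23.1%) and 2 with no antibody (3.03% beside 1.24%). In HEK293 cells there were 38 with S9.6 (56.7% beside 30.1%) and 35 with RNH1 (52.2% beside 24.6%). With FLAG-MCM8 there were 15 (22.4% beside 12.0%) and with IgG 8 (11.9% beside 5.59%). Their Wilson intervals lay above all genes in every S9.6 list, so a higher share there was not particular to the 50 regulators. They also lay above all genes with FLAG-MCM8 (14.1 to 33.7) and with IgG (6.18 to 21.8).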

How the data were processed

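The 9 CUT&Tag libraries were grouped by their labels, 1 library per group, and 0 columns of per-sample values were left unused. Per the submitters' processing notes, the authors processed reads with Trimmomatic, Bowtie2 and MACS2 2.1.2 and called 1 peak list per library, in MEFs without the no-antibody library as input. The study's methods name another version of MACS2, and which one made the lists is not known. The deposited values were used as they stand: a fold (a ratio of the summit pileup to the local background), a −log10 p, a −log10 q and the offset of the summit from the peak start. The MACS2 calling cutoff is not given in the sources used here, and the limits of p stated are the weakest values in the lists. For HEK293 cells the study's methods call peaks significant at a fold above 2 and a p below 0.05, and for MEFs they use these limits for gained peaks. The HEK293 lists skip peak numbers, so peaks had been removed after calling, yet the lowest deposited fold is 1.79 with S9.6 and 1.72 with RNH1, so that fold limit does not account for these lists as deposited.

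From the deposited fold and −log10 p of each peak the whole-number pileup and its local background were solved (for 99.94% or more of each list), which also gave the relative depths. The solution was tested on simulated data. Ratios of pileups were scaled by the lowest background of each list and carry intervals from counting alone, which treat fragments as independent molecules, and the lists do not state how duplicates were treated. A peak present in a single list of a pair was compared with the smallest pileup that list's partner would have called. Peaks were called overlapping with at least 1 bp in common. Shares carry 95% Wilson intervals, and peak densities and pileups exact Poisson intervals. Since no group had a replicate, no p-value was computed.

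Values were given for all 50 genes by role, with those of CDK4 in every list, members recurring across lists, the 3 highest −log10 q per list and members that differed within a pair. The members and lists were chosen with earlier results of these data known. Alternatives were another TSS window (500 bp or 3 kb), any base of a peak in the window, 1 TSS per gene, a q of 0.05 or lower, the same number of strongest peaks, and control peaks left out. Sequences come from mm10 and hg38. Python 3.11.15 was used, with the packages scipy 1.17.1 for intervals, pandas 2.3.3 and numpy 2.4.6 for the tables, and matplotlib 3.10.9 for plots.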

Additional observations from a re-analysis of the deposited data

Results flagged for a closer look

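The promoter of Cdc25c, the phosphatase that activates CDK1 at mitosis, moved in opposite directions in the MEF pairs. It had a peak in WT (fold 3.98, pileup 12) and none in KO, a difference of -1 list, and a peak in shDdx5 (fold 4.51, pileup 15) and none in shControl, a difference of 1 list. The pileup in WT was at least 1.71 times an uncalled KO pileup (0.595 to 5.56) and that in shDdx5 at least 1.85 times an uncalled shControl pileup (0.711 to 5.37), so neither exceeded counting error, and the difference between the pairs was not tested. Of all mouse protein-coding genes, 1.43% were found in WT but not KO and in shDdx5 but not shControl.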

How the results depend on the processing

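Of 193 values under an alternative, 182 stayed within the counting error of the value reported and 11 did not. The excess of the regulators in IgG, whose interval included 0, changed sign within 500 bp (0.541 points in place of -1.59), and 0 values whose interval excluded 0 did. In all 42 alternatives of the 6 lists in which the regulators' share of promoter peaks lay above all genes, it stayed above. With peaks of q 0.05 or lower the share was 18.0% in WT, 20.0% in KO and 24.0% in shControl, and gene body peaks per 100 kb were 0.0856 in WT, 0.0856 in KO, 0.171 in shControl and 0 with no antibody. With the same number of strongest peaks the shControl density was 0.257 (0.0529 to 0.750). The excess of the regulators over all genes in percentage points was -5.24 in IgG within 3 kb of a TSS and -1.34 with no antibody when any base counted. With 1 TSS per gene, promoters with an S9.6 peak but no RNH1 peak made up 8.0%. The FLAG-MCM8 excess had an interval above 0 within 500 bp alone (10.6 points, from 1.84). The cause of these shifts was not tested beyond the fewer peaks or wider windows that each alternative sets. No paired analysis was possible because each group held 1 library. For the same reason no library could be left out. Depth limits the absences most with no antibody, where 0.720 background fragments per kb stood beside 5.73 to 7.0.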
